A study of Mus musculus with 10 samples.

Results

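The MBD family of proteins shares the methyl-CpG binding domain, and 6 of its genes, Mbd1 to Mbd6, were chosen by name. A gene was represented by its brightest probe set on average over 10 arrays, among probe sets annotated with 1 symbol. This gave values for 5 of the 6 genes (Mbd1, Mbd2, Mbd3, Mbd4 and Mbd6) among 22180 genes in all; Mbd5 is not analysed here. The values come from mouse embryonic fibroblasts, primary connective tissue cells put into culture from the dorsal skin of E13.5 embryos. Total RNA was hybridised to one-colour Affymetrix arrays, 5 labelled as Zbtb4 knock-out and 5 labelled wild type. The strain, the deleted part of Zbtb4 and any relation between samples are not given in the labels. The arrays of each genotype are numbered from 1 to 5, but nothing ties each array to an embryo of its own, and the p-values then cover only the spread among these samples, which may be technical.

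In vertebrate DNA most CpG sites carry a methyl group on cytosine, and some proteins of the MBD family link such sites to chromatin and repair enzymes. Mbd1 represses transcription and brings in the histone H3 lysine 9 methyltransferase Setdb1. Mbd2 and Mbd3 are alternative subunits of the nucleosome remodelling and deacetylase (NuRD) complex, of which Mbd2 reads methylated CpG while mammalian Mbd3 has lost most of that preference. Mbd4 is a DNA glycosylase that removes thymine from the mismatches left when methylated cytosine is deaminated. Mbd5 and Mbd6 join the PR-DUB complex, which takes ubiquitin off histone H2A. Zbtb4 reads methylated CpG through zinc fingers and is no member of the family. The comparison asks whether transcripts of the MBD family differ where Zbtb4 is disrupted.

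Zbtb4 and some proteins of the family read CpG sites, so promoters are shown with every CpG in capitals. No window was taken for Mbd1 or Mbd2. The promoters shown are those of the 3 other measured members. They are the 250 bases before a transcript start, 5′ to 3′ on the strand of the gene, from RefSeq on GRCm38.p6, and for Mbd6 the window of 2 with more CpG sites. The windows lie on the minus strand at chr10:80399532-80399781 (Mbd3), chr6:115853342-115853591 (Mbd4) and chr10:127288882-127289131 (Mbd6).
Mbd3: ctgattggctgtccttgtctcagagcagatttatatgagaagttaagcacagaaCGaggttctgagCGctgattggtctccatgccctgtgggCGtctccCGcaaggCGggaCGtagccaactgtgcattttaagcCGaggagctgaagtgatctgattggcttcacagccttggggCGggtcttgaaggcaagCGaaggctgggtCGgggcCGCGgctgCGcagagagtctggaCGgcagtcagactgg
Mbd4: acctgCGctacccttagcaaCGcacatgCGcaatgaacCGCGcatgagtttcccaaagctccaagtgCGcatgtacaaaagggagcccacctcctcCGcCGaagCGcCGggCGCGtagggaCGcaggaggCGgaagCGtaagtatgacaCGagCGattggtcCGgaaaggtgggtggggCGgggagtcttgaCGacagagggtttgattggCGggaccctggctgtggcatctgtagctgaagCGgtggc
Mbd6: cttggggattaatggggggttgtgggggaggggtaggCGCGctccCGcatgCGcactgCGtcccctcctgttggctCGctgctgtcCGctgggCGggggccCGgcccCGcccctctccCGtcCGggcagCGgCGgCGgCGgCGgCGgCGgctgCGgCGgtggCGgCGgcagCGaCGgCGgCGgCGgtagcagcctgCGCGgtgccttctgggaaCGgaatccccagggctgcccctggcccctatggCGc
The Mbd3 window holds 14 CpG sites, the Mbd4 window 22 and the Mbd6 window 32, against a median of 6 over 32851 RefSeq windows of the same length. Fewer sites were held by 70.6%, 85.2% and 95.4% of those windows, in that order. The Mbd6 window not shown holds 17. Neither CTGCCATC nor CCGCCATC, words that Zbtb4 is known to bind in vitro and that differ at 1 base, was found on either strand of these windows. Of all windows, 1.09% held the first word and 0.874% the second on either strand. The methylation of these sites was not measured here.

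Log2 medians over genes ran from 4.29 to 4.34 across the 10 arrays, and pairs of arrays correlated with r from 0.989 to 0.994 across genes, which are not independent replicates. Zbtb4 was lower on all 5 knock-out arrays (log2 5.04 to 5.76) than on all 5 wild-type arrays (5.94 to 6.23), a difference of -0.62 ± 0.12 (SE; exact two-sided permutation p = 0.00794, the smallest that 5 against 5 arrays can give; limma adjusted p = 0.628). All 10 fibroblast markers lay above the array median on every array, as did 3 of 8 macrophage, 1 of 8 endothelial, 2 of 5 skeletal muscle, 0 of 4 keratinocyte and 0 of 3 erythroid markers. The mean log2 level of the macrophage markers ran from 3.95 to 5.27 on knock-out and from 4.24 to 4.53 on wild-type arrays, that of endothelial markers from 3.60 to 3.85 and from 3.44 to 3.80, and that of skeletal muscle markers from 4.77 to 5.16 and from 4.56 to 4.99. For keratinocyte markers it ran from 3.01 to 3.25 and from 3.08 to 3.27, for erythroid markers from 3.06 to 3.24 and from 2.80 to 3.04, and for fibroblast markers from 9.27 to 9.56 and from 9.20 to 9.68.

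The genotype differences of the MBD family were small, with log2 differences from -0.17 to 0.097. Mbd4, Mbd6 and Mbd2 had lower means in knock-out cells and Mbd1 a higher one, while Mbd3 differed by 0.0010. No member passed limma's Benjamini-Hochberg adjusted threshold of 0.05, where 0 of 22180 genes passed (0%). At an unadjusted p under 0.05, 1 of the 5 members was found, Mbd4, against 5.98% of all genes, and 0 of 5 had groups of arrays that did not overlap, against 0.987% of all genes. The median difference of the members was -0.079, that of all genes 0.0020. Levels of different genes are not set against each other here, since probe sets differ in how strongly they respond.

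**Figure D1:**
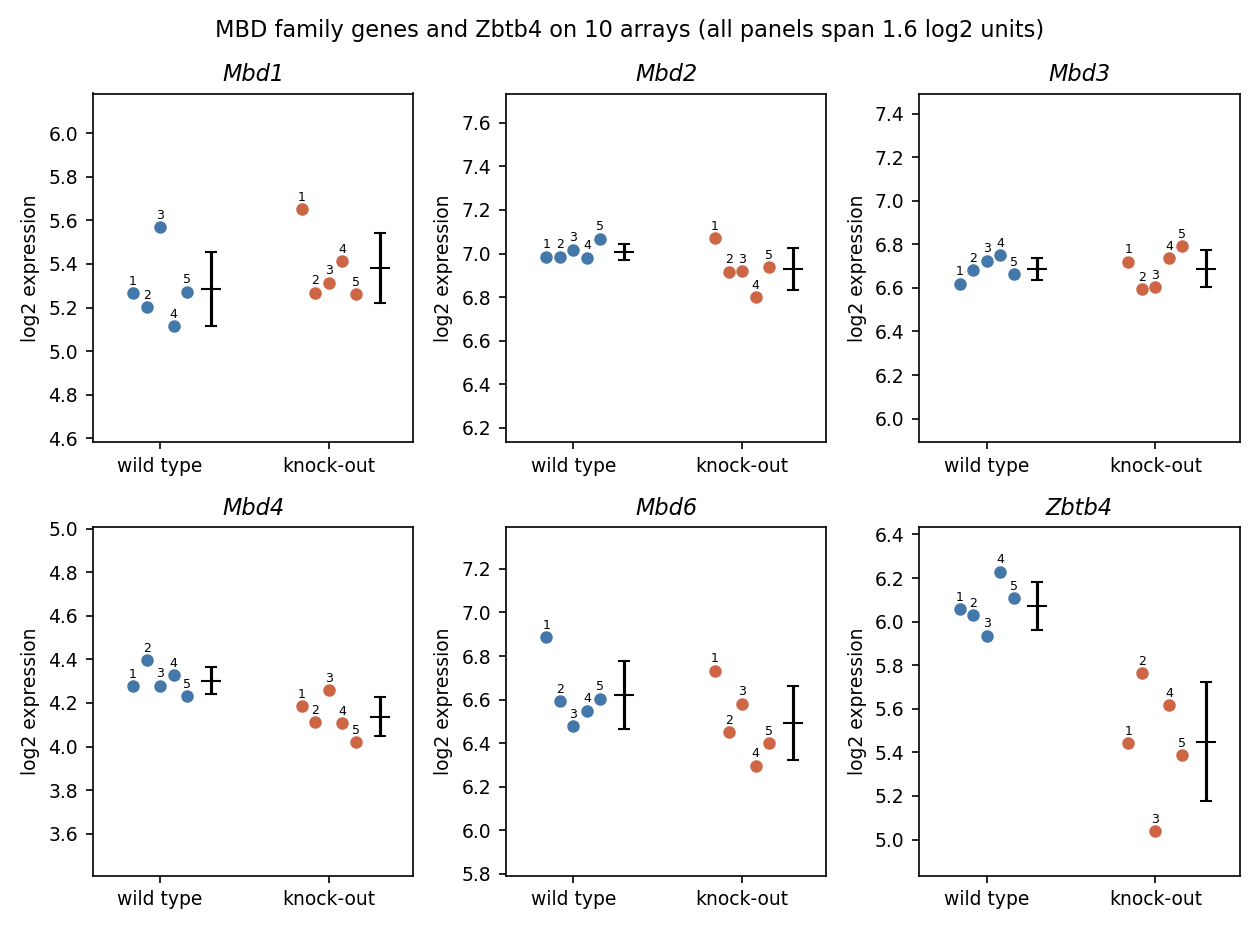
Log2 expression (vertical axis) of the 5 measured MBD family genes and Zbtb4 on 5 wild-type (blue) and 5 knock-out (orange) arrays, with array numbers above the points and the mean ± SD beside each group. All panels span the same height; Zbtb4 separates the genotypes by -0.62, while the groups overlap for every MBD gene and Mbd4 has 4 knock-out arrays below all wild-type arrays.

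Mbd1, the repressor that works with Setdb1, gave log2 values of 5.65, 5.27, 5.31, 5.41 and 5.26 on knock-out arrays 1 to 5 and 5.27, 5.20, 5.57, 5.11 and 5.27 on wild-type arrays 1 to 5. The highest array of each genotype, knock-out array 1 and wild-type array 3, stood 0.24 and 0.29 above the next. Knock-out array 1 lay above all wild-type arrays and wild-type arrays 2 and 4 below all knock-out arrays, while the other arrays overlapped. Knock-out cells averaged 5.38 ± 0.16 and wild-type cells 5.29 ± 0.17 (SD, n = 5 each). The log2 difference was 0.097 with a 95% interval from -0.12 to 0.32 (limma adjusted p = 0.897; exact two-sided permutation p = 0.389). Dropping knock-out array 1 gave 0.030, and dropping wild-type array 3 gave 0.17.

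Mbd2, the subunit that brings NuRD to methylated DNA, gave 7.07, 6.92, 6.92, 6.80 and 6.94 on the knock-out arrays and 6.99, 6.99, 7.02, 6.98 and 7.07 on the wild-type arrays. Knock-out arrays 2 to 5 lay below all wild-type arrays, and knock-out array 1 lay level with wild-type array 5, the highest of its genotype (7.069 against 7.068). The means were 6.93 ± 0.096 and 7.01 ± 0.037 (SD, n = 5 each). The difference was -0.079, with an interval from -0.23 to 0.073 (limma adjusted p = 0.880; exact two-sided permutation p = 0.143). Leaving out knock-out array 1 gave -0.11, and leaving out knock-out array 4 gave -0.047.

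Mbd3, the other NuRD subunit, was the member with the least difference. Its values were 6.72, 6.59, 6.60, 6.74 and 6.79 on knock-out arrays and 6.62, 6.68, 6.72, 6.75 and 6.66 on wild-type arrays. Both groups averaged 6.69, with SDs of 0.087 and 0.051 (n = 5 each). The difference of 0.0010 had an interval from -0.15 to 0.15 (limma adjusted p = 0.999; exact two-sided permutation p = 1), which corresponds to at most 1.11-fold in either direction. Its sign turned with arrays centred on their medians (-0.017) and with some single arrays left out: it was -0.024 when knock-out array 5 was dropped and 0.025 when knock-out array 2 was.

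Mbd4, the glycosylase, had the smallest p-value of the family. It gave 4.19, 4.11, 4.26, 4.11 and 4.02 on knock-out arrays and 4.28, 4.40, 4.28, 4.33 and 4.23 on wild-type arrays. All 5 knock-out arrays lay below the wild-type mean, and only knock-out array 3 overlapped the wild-type range. The means were 4.14 ± 0.090 and 4.30 ± 0.062 (SD, n = 5 each), a 1.12-fold lower signal. The difference was -0.17 ± 0.072 (SE), with an interval from -0.32 to -0.010. Unadjusted, limma gave p = 0.0382 and the exact two-sided permutation p was 0.0159, but after adjustment over all genes limma's p was 0.824. With single arrays left out the difference stayed between -0.20 and -0.14. In 9 of 18 other settings the unadjusted limma p rose to between 0.0513 and 0.0945: with the replicate number as a block, with trend and robust, and without knock-out array 2, 4 or 5 or wild-type array 1, 2, 3 or 4. The signal lay above the array's median over genes on 2 of 10 arrays, and the level at which a value is background is not known.

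Mbd6, a PR-DUB partner, gave 6.73, 6.45, 6.58, 6.30 and 6.40 on knock-out arrays and 6.89, 6.59, 6.48, 6.55 and 6.60 on wild-type arrays. Knock-out arrays 2, 4 and 5 lay below all wild-type arrays, while array 1 of each genotype was its highest. The means were 6.49 ± 0.17 and 6.62 ± 0.16 (SD, n = 5 each), and the difference of -0.13 had an interval from -0.35 to 0.088 (limma adjusted p = 0.861; exact two-sided permutation p = 0.238). Dropping wild-type array 1 gave -0.064, and dropping knock-out array 1 gave -0.19.

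**Figure D2:**
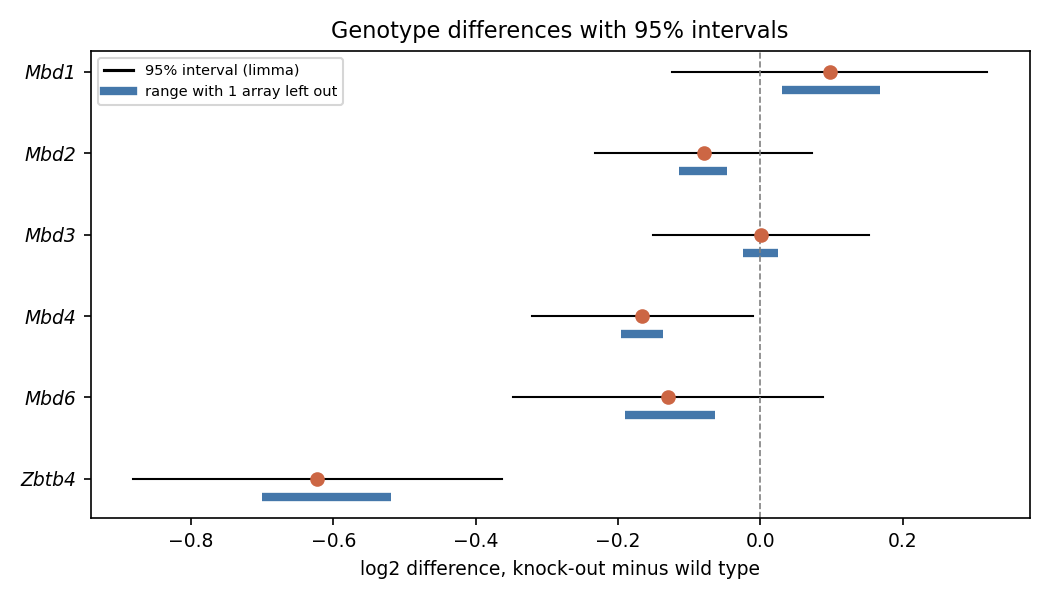
Log2 difference between knock-out and wild-type cells (horizontal axis) for each MBD family gene and Zbtb4, with limma's 95% interval (black) and the range with 1 array left out (blue bar). Intervals of Mbd1, Mbd2, Mbd3 and Mbd6 include 0; that of Mbd4 runs from -0.32 to -0.010 and that of Zbtb4 from -0.88 to -0.36, both before adjustment over genes.

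The members also differed in how much they varied between arrays of 1 genotype. Mbd3, Mbd2 and Mbd4 had pooled SDs of 0.071, 0.073 and 0.077 log2 units, where the median over all genes was 0.16, and 3.30%, 3.53% and 4.77% of genes had a smaller SD. Mbd6 and Mbd1, with 0.16 and 0.17, lay near the median gene. Knock-out array 1 was the highest of its genotype for Mbd1, Mbd2 and Mbd6. Knock-out array 4 was the lowest for Mbd2 and Mbd6 but the next highest for Mbd1 and Mbd3. Knock-out array 5 was the lowest for Mbd1 and Mbd4 but the highest for Mbd3. Over 15 proliferation genes, knock-out arrays 1, 4 and 5 had scores of 0.13, -0.37 and -0.17, the highest, lowest and next lowest of the knock-out arrays. Among wild-type arrays the order was another: array 4, with the highest score (0.22), was the lowest for Mbd1 and Mbd2. The part of proliferation in the members' differences was not tested.

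**Figure D3:**
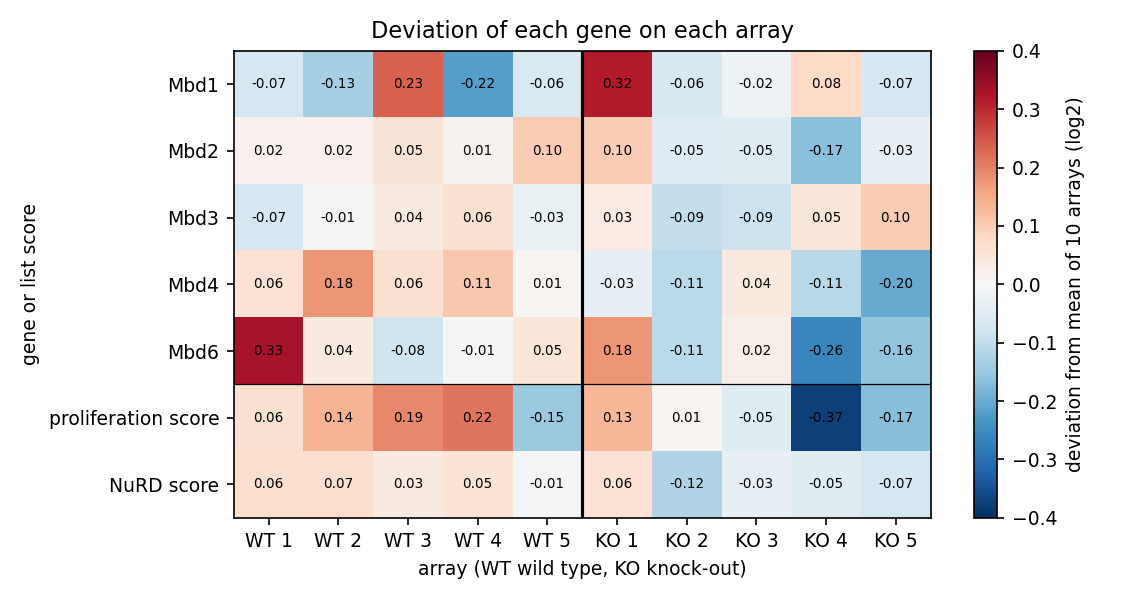
Deviation in log2 units of 5 MBD family genes, the proliferation score and the NuRD score from their means over 10 arrays (colour and printed value), with wild-type arrays at the left and knock-out arrays at the right of the line. Mbd1 on knock-out array 1 (0.32) and Mbd6 on wild-type array 1 (0.33) depart most among the MBD genes; the NuRD score is above 0 on 4 of 5 wild-type arrays and below 0 on 4 of 5 knock-out arrays.

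Relations between members were computed after each genotype's mean was removed, over 10 arrays. They cover 10 pairs of members and each member with the proliferation score, 15 relations in all. Where 2 arrays were left out, the genotype means removed still included those arrays. Permutations ran over all 10 arrays and not within each genotype. No relation passed a permutation test after Benjamini-Hochberg adjustment. Mbd2 and Mbd6 had the highest Pearson r among pairs, 0.55 (permutation p = 0.103, adjusted 0.635), with Spearman's rho of 0.28 (permutation p = 0.426, adjusted 1). Their r turned to -0.28 without knock-out arrays 1 and 4, so its sign rests on those samples together. With any 1 array left out it stayed positive, from 0.19 to 0.83. Mbd3 and Mbd6 gave r of -0.45 (permutation p = 0.196, adjusted 0.635) and rho of -0.62 (permutation p = 0.0610, adjusted 0.458), and r of -0.58 without knock-out arrays 2 and 3. Mbd2 and Mbd3, the alternative NuRD subunits, gave r of 0.00071 (permutation p = 0.998) and rho of -0.10 (permutation p = 0.784). Mbd4 and the proliferation score gave r of 0.51 (permutation p = 0.129, adjusted 0.635) and rho of 0.65 (permutation p = 0.0489, adjusted 0.458), and r was 0.65 without knock-out array 3 and wild-type array 2. For the other members, r with that score was computed again without the 2 arrays farthest from the member's median. It went from 0.23 to -0.81 (Mbd1), from 0.49 to -0.79 (Mbd2), from -0.086 to 0.12 (Mbd3) and from 0.39 to 0.31 (Mbd6). The sign turned for Mbd1, Mbd2 and Mbd3, so it rests on which arrays are kept. With any 1 array left out, r for Mbd2 stayed positive, from 0.056 without knock-out array 4 to 0.85 without wild-type array 5.

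For each member, the genes most like it were taken as those with the highest Pearson r over the 10 arrays among 10269 brighter named genes. Here the genotype means were not removed, so a shared genotype difference adds to r. Such values are the extremes of many and are given as a description. Mbd1 was followed by Rnf121 (r = 0.97), Tmem186 (0.92) and Snrnp70 (0.92), and Mbd2 by Ccp110 (0.94), Arhgef12 (0.91) and Msl3 (0.91). Nearest to Mbd3 were Stc1 (0.91), Bend3 (0.90) and Lrrc40 (0.89). Nearest to Mbd4 were Dock11 (0.94), Gtf2e2 (0.94) and Adam33 (0.94), and to Mbd6 Ap1b1 (0.92), Tfap2a (0.91) and Stx18 (0.91). Like Mbd4, Dock11, Gtf2e2 and Adam33 had lower means in knock-out cells, by log2 differences of -0.29, -0.16 and -0.50.

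Genes of the NuRD complex, the partners of Mbd2 and Mbd3, had mostly lower means in knock-out cells by small amounts. Of 14 measured, 13 had a lower and 1 a higher mean, where 49.3% of all genes had a lower mean, and the median log2 difference was -0.092. Without the dimmest 40% of genes, all 14 NuRD genes remained with the same 13 lower, and 54.5% of the remaining genes had a lower mean. None passed the adjusted threshold; 2 of 14 had an unadjusted limma p under 0.05, against 5.98% of all genes. The histone chaperone Rbbp4 averaged 7.95 ± 0.088 on knock-out and 8.14 ± 0.063 on wild-type arrays (SD, n = 5 each), which differ by -0.19 (limma adjusted p = 0.821). Mta1, a scaffold subunit, averaged 9.05 ± 0.037 and 9.21 ± 0.086, which differ by -0.16 (limma adjusted p = 0.823). Arrays of the genotypes did not overlap for Mta1 (8.99 to 9.09 against 9.13 to 9.32) or for the deacetylase Hdac2, against 0.987% of all genes. For Hdac2 the ranges nearly met (8.898 to 8.981 against 8.987 to 9.078), with a difference of -0.068 (limma adjusted p = 0.886). Chd4, a remodelling ATPase, was the member with a higher mean, by 0.052; Hdac2 and Chd4 were picked after their values were seen. The lower means stood at 12 or 13 of 14 in each of 18 other settings, with medians from -0.12 to -0.058. The median of -0.058 came without knock-out array 2, whose NuRD score of -0.12 was the lowest. Among those settings, trend and robust, the replicate block and the filter on dim genes cannot change the NuRD differences. Proliferation genes had 14 of 15 means lower, with a median of -0.21, which was -0.13 without knock-out array 4. Their part in the NuRD differences was not tested, and in bulk RNA fewer cells of a type and less RNA per cell cannot be told apart.

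**Figure D4:**
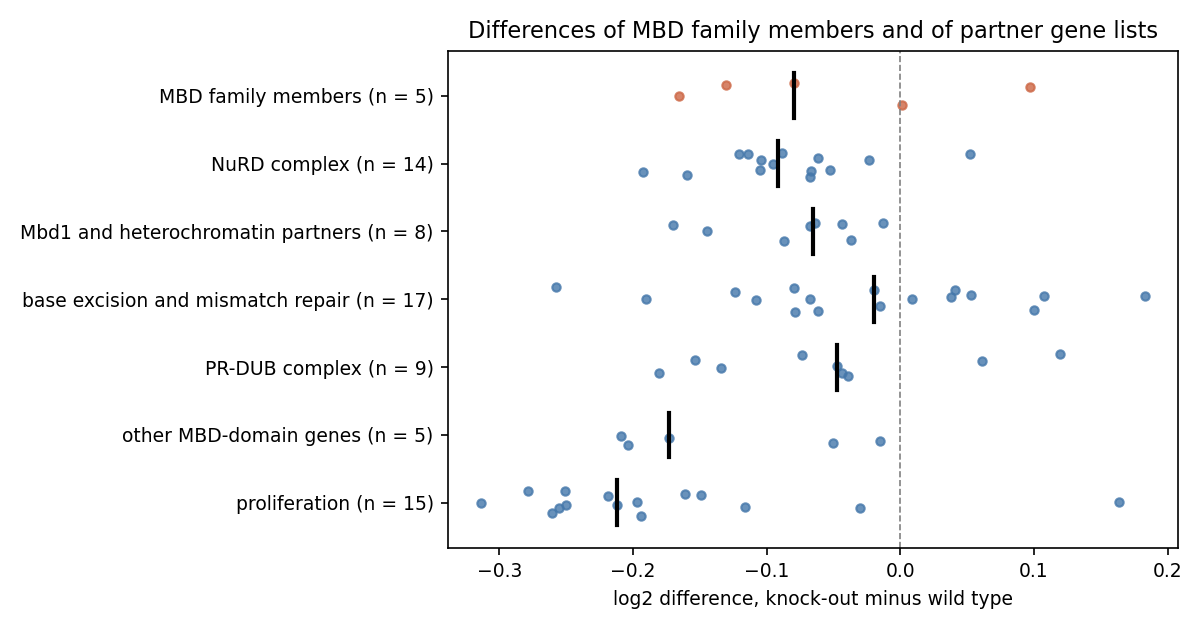
Log2 difference between knock-out and wild-type cells (horizontal axis) of each measured gene (points) in the MBD family and 6 gene lists, with the list's median as a black bar. NuRD genes centre on -0.092 and proliferation genes on -0.21, while repair genes spread on both sides of 0; no gene shown passed the adjusted threshold.

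The other partner lists were also made of small differences, none past the adjusted threshold. Of all genes 49.3% had a lower mean in knock-out cells, and 54.5% of those left without the dimmest 40%. All 8 measured genes of heterochromatin linked to Mbd1 had a lower mean, with a median of -0.066. In other settings 6 to 8 of them did so, and the median ran from -0.12 (without wild-type array 5) to -0.045 (under quantile normalization). Without knock-out array 1 the median was -0.11. Setdb1, the methyltransferase that Mbd1 recruits and itself a carrier of an MBD-type domain, differed by -0.14 (limma adjusted p = 0.843). Atf7ip2 differed by -0.17 (limma adjusted p = 0.884), at means of 3.19 ± 0.15 on knock-out and 3.36 ± 0.39 on wild-type arrays (SD). Its signal lay below the array median on every array. Among 17 genes of base excision and mismatch repair, the setting of Mbd4, 10 were lower and 7 higher, with a median of -0.020 that lay anywhere from -0.074 (without knock-out array 3) to -0.0026 (without knock-out array 4) when 1 array was dropped. The DNA ligase gene Lig3 differed by -0.26 (limma adjusted p = 0.839) and the gap-filling polymerase gene Polb by -0.19 (adjusted p = 0.857). The PR-DUB complex, which Mbd6 joins, had 7 of 9 means lower and a median of -0.047. Without knock-out array 5, 5 of 9 were lower and the median was -0.023; it was -0.092 without knock-out array 3 and -0.014 under quantile normalization. Its subunit genes Hcfc1 and Asxl1 differed by -0.15 (limma adjusted p = 0.835) and -0.18 (adjusted p = 0.841).

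Genes with an MBD-type domain outside the chosen family had 5 of 5 means lower, where 49.3% of all genes did, with a median of -0.17. The count was 3 of 5 without knock-out array 2 and 4 of 5 under quantile normalization and without knock-out array 5 or wild-type array 5. Setdb2, a histone methyltransferase, averaged 5.40 ± 0.16 on knock-out and 5.61 ± 0.085 on wild-type arrays (SD, n = 5 each), lower by a log2 difference of -0.21 (limma adjusted p = 0.821). Mbd3l1, a germ cell relative of Mbd3, differed by -0.20 (limma adjusted p = 0.842) at means of 1.87 and 2.07. It and Mbd3l2 lay below the array median on every array, and without the dimmest 40% of genes the list's median was -0.051. Without wild-type array 5 the list's median was -0.079.

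Members of the proliferation list with the smallest p-values were Aurkb, a mitotic kinase, at -0.31 and Tpx2, a spindle assembly factor, at -0.25 (both limma adjusted p = 0.821).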

How the data were processed

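The table holds the authors' deposited values, judged from their range to be log2 expression, for 41345 probe sets on 10 arrays; the steps of summarisation, background correction and normalization were not given in the sources used here. If arrays were made equal in that step, a change in total RNA would not show. Probe sets were named through GEO's platform annotation: 23521 had 1 gene symbol, 1814 several and 16010 none, and only the first were used. Of several probe sets for 1 gene, that with the highest mean was kept, which left 22180 genes; each measured member had 1 probe set. The genotype difference of every gene was estimated in limma 3.58.1 (lmFit, eBayes; R 4.3.3) with no filter or covariate, with Benjamini-Hochberg adjustment over all genes. For single genes an exact permutation test, two-sided, ran over the 252 splits of the arrays, and relations across arrays by 100000 permutations. Promoter windows were cut to the 250 bases before the start. The fit was tested on simulated data.

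Members and gene lists were chosen with earlier results of these data known. Named are all measured members and Zbtb4, the 2 genes of each list with the smallest p-values and the 3 genes most like each member; gene models, olfactory or vomeronasal receptors, micro RNAs and small nucleolar RNAs were passed over. The number of arrays limits the precision. Alternatives were quantile normalization, median centring, leaving out the dimmest 40% of genes, averaging probe sets, eBayes with trend and robust, weighting arrays, a block for the replicate number, a covariate from 3 Y-linked genes, an adjusted threshold of 0.1 and leaving out each array. Same-numbered arrays of the genotypes were checked for shared deviations.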

Additional observations from a re-analysis of the deposited data

Results flagged for a closer look

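Wild-type array 5 stood apart from the other wild-type arrays in the scores of 2 gene lists, which are the mean log2 deviations of a list's genes from their means over 10 arrays. Its score was -0.16 for base excision and mismatch repair and -0.052 for the PR-DUB complex, the lowest of its genotype in both. Its gap to the nearest wild-type array was 0.76 and 0.72 of the group's range, past Dixon's critical value of 0.71 for 5 samples. Of 24 groups tested, 2 passed, and chance passes about 1 in 20. None of the MBD genes had such an array in either genotype.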

How the results depend on the processing

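Mbd1, Mbd2, Mbd4, Mbd6 and Zbtb4 kept the sign of their difference in all 18 other fits, and no member passed the adjusted threshold in any. Leaving out dim genes, averaging probe sets, eBayes with trend and robust, and the replicate block gave the main differences again. For these genes such fits bear only on the p-values, not on the sign. Mbd3 turned to -0.017 with arrays centred on their medians and lay between -0.024 and 0.025 when any 1 array was dropped. The count of genes past the threshold was 0 in every other fit and at an adjusted p under 0.1, except that leaving out single arrays gave 0 to 1, the 1 without wild-type array 5. The median of other MBD-domain genes moved to -0.051 without the dimmest 40% of genes, which removes Mbd3l1 and Mbd3l2, and lay between -0.22 and -0.079 when any 1 array was dropped. Centring arrays raised the share of genes with a lower mean from 49.3% to 55.4%. With the replicate number as a block, the difference of Mbd4 was unchanged at -0.17 (limma adjusted p = 0.850). The count of genes past the threshold stayed at 0 with the block. The main fit had no block because the labels do not say that the numbers pair arrays. Same-numbered arrays had deviations correlated by -0.045 to 0.17, which cannot tell whether they were paired. Knock-out arrays 1 and 5 correlated best with the wild-type array of the same number, while knock-out arrays 2, 3 and 4 did not. Averaging probe sets repeats the main values for the members, which have 1 each; for the same reason no other probe set of a member could be fitted.

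Quantile normalization turned the sign of r for Mbd1 with Mbd3 (-0.17), Mbd1 with Mbd6 (-0.021), Mbd2 with Mbd3 (-0.11) and Mbd2 with Mbd4 (-0.0064). With single arrays left out, chosen for these relations after seeing the data, r ran from -0.077 to 0.71 for Mbd1 with Mbd2, -0.18 to 0.17 for Mbd1 with Mbd4, -0.32 to 0.59 for Mbd1 with Mbd6, -0.22 to 0.27 for Mbd2 with Mbd3, -0.23 to 0.19 for Mbd2 with Mbd4, -0.14 to 0.40 for Mbd1 with the proliferation score and -0.21 to 0.12 for Mbd3 with it. The cause was not tested. Array signal over background is not known, which limits what can be said of Mbd4.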

Other observations

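The genes next to the measured members on their chromosomes, taken in the order of the RefSeq table after the members' values were seen are given as values. Beside Mbd4, Ift122, a gene of transport within cilia, differed by -0.17 (limma adjusted p = 0.855) and Efcab12 by 0.32 (limma adjusted p = 0.831), opposite in sign to Mbd4. The signal of Efcab12 was low, with means of 3.22 on knock-out and 2.90 on wild-type arrays, where array medians over genes ran from 4.29 to 4.34. Beside Mbd6, the stress response factor gene Ddit3 differed by -0.012 and the dynactin subunit gene Dctn2 by -0.017. Beside Mbd3, the respiratory chain gene Uqcr11 differed by 0.074 and Mex3d by -0.0015. Beside Mbd1, the CpG binding protein gene Cxxc1 differed by -0.061 and Cfap53 by 0.037. Beside Mbd2, the DNA polymerase gene Poli differed by -0.042 and Dcc by -0.099. None of the 10 passed the adjusted threshold in limma, and 1, Efcab12, had an unadjusted p under 0.05, against 5.98% of all genes.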
